A study of Homo sapiens with 4 samples.

Results

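Large-subunit ribosome assembly factors are the proteins that build the 60S ribosomal subunit in the nucleolus and nucleoplasm and are absent from the finished ribosome. A list of 38 such genes was followed, and all 38 were found by symbol among the 29286 genes listed in each library. The libraries are RNA-seq of HCT116, an established human colorectal carcinoma line. Cells were infected for 48 h with lentiviruses that carry a short hairpin and were then kept in puromycin for 3 days. The control cells carry the hairpin shNC (shNC2 in the sample titles, genotype Control), and the other cells carry a hairpin against WDR43 (shWDR43, genotype WDR43 knockdown). Each group has 2 libraries, numbered replicates 1 and 2. Both groups therefore share infection and drug selection, and WDR43 knockdown is represented under 1 label. The labels leave unsaid whether the replicates are separate cultures. The p-values therefore speak only to variation among these 4 libraries, and that variation may be technical.

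A large subunit starts as a nucleolar precursor that joins the 5.8S and 28S ribosomal RNAs, cut from a common transcript with the small-subunit RNA, to ribosomal proteins. Assembly factors bind and leave in order. Helicases and methyltransferases act on the RNA early, the PES1-BOP1-WDR12 complex is needed to remove the internal spacer ITS2, GTPases check folding, and ATPases pull factors off before export. WDR43 belongs to the other branch, the small-subunit processome. The study's title places it between MYC and p53 in colorectal cancer. MYC is known to drive genes of ribosome production.

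The deposited values were read as FPKM, fragments per kilobase of transcript scaled to library size, and summed to 393582 to 413758 per library. The depth in reads is unknown. No value for WDR43 was analysed here, so the knockdown labels could not be checked on their target. The 8 epithelial markers summed to 1894 and 2232 FPKM in shNC and to 2700 and 2673 FPKM in shWDR43. They did not move together: KRT8, KRT18, KRT19, CLDN4 and CLDN7 lay above both controls in shWDR43. Their log2 differences were 0.50, 0.44, 0.36, 1.06 and 0.57. In limma KRT8, CLDN4 and CLDN7 passed (adjusted p = 0.0480, 0.0306 and 0.0234), and KRT18 and KRT19 did not (adjusted p = 0.0870 and 0.129). EPCAM and CDH1 had overlapping groups, and ESRP1 lay below the controls (log2 differences -0.069, -0.11 and -0.11). Of 9 measured markers of other cell types, COL3A1, PECAM1, CDH5, VWF and PDGFRB stayed at or under 0.128 FPKM in each library. COL3A1 was at 0 in shNC replicate 1 and CDH5 at 0 in shWDR43 replicate 1. LYZ was at 0.249 FPKM or less. COL1A1 was not low, at 7.80 and 6.98 FPKM in shNC and 7.14 and 5.69 FPKM in shWDR43. All 9 together summed to 17.3 and 17.5 FPKM in shNC and to 30.9 and 26.6 FPKM in shWDR43, and their part in the results was not tested. CD68 and ACTA2 made most of that difference, with CD68 at 4.62 and 3.58 FPKM in controls and 11.7 and 10.6 FPKM after knockdown (limma adjusted p = 0.00646). ACTA2 was at 4.39 and 6.47 FPKM in controls and 11.8 and 9.79 FPKM after knockdown (limma adjusted p = 0.0314). The 13 mitochondrially encoded mRNAs made up 26.8% and 25.5% of the FPKM in shNC and 24.6% and 23.9% in shWDR43, and their part was not tested either. In bulk RNA, fewer cells that express a gene and less RNA per cell cannot be told apart.

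Most assembly factors were expressed above the median gene, and RRP15, DDX51 and NLE1 were well below it. Their mean levels ran from 2.56 FPKM for RRP15 to 88.8 FPKM for GNL3, with a median of 16.4 FPKM against 7.41 FPKM over all tested genes. Summed over the 38 genes, the level was 768 and 824 FPKM in shNC replicates 1 and 2 and 836 and 823 FPKM in shWDR43 replicates 1 and 2. As a share of all FPKM this was 0.195% and 0.199% in shNC and 0.203% and 0.204% in shWDR43. The sum in shNC replicate 2 lay above that of shWDR43 replicate 2, so the groups overlapped in the summed level and not in the share. The total behind the share includes the mitochondrially encoded mRNAs, at 26.8% and 25.5% in shNC and 24.6% and 23.9% in shWDR43. Their part in the separation of the shares was not tested.

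**Figure D1:**
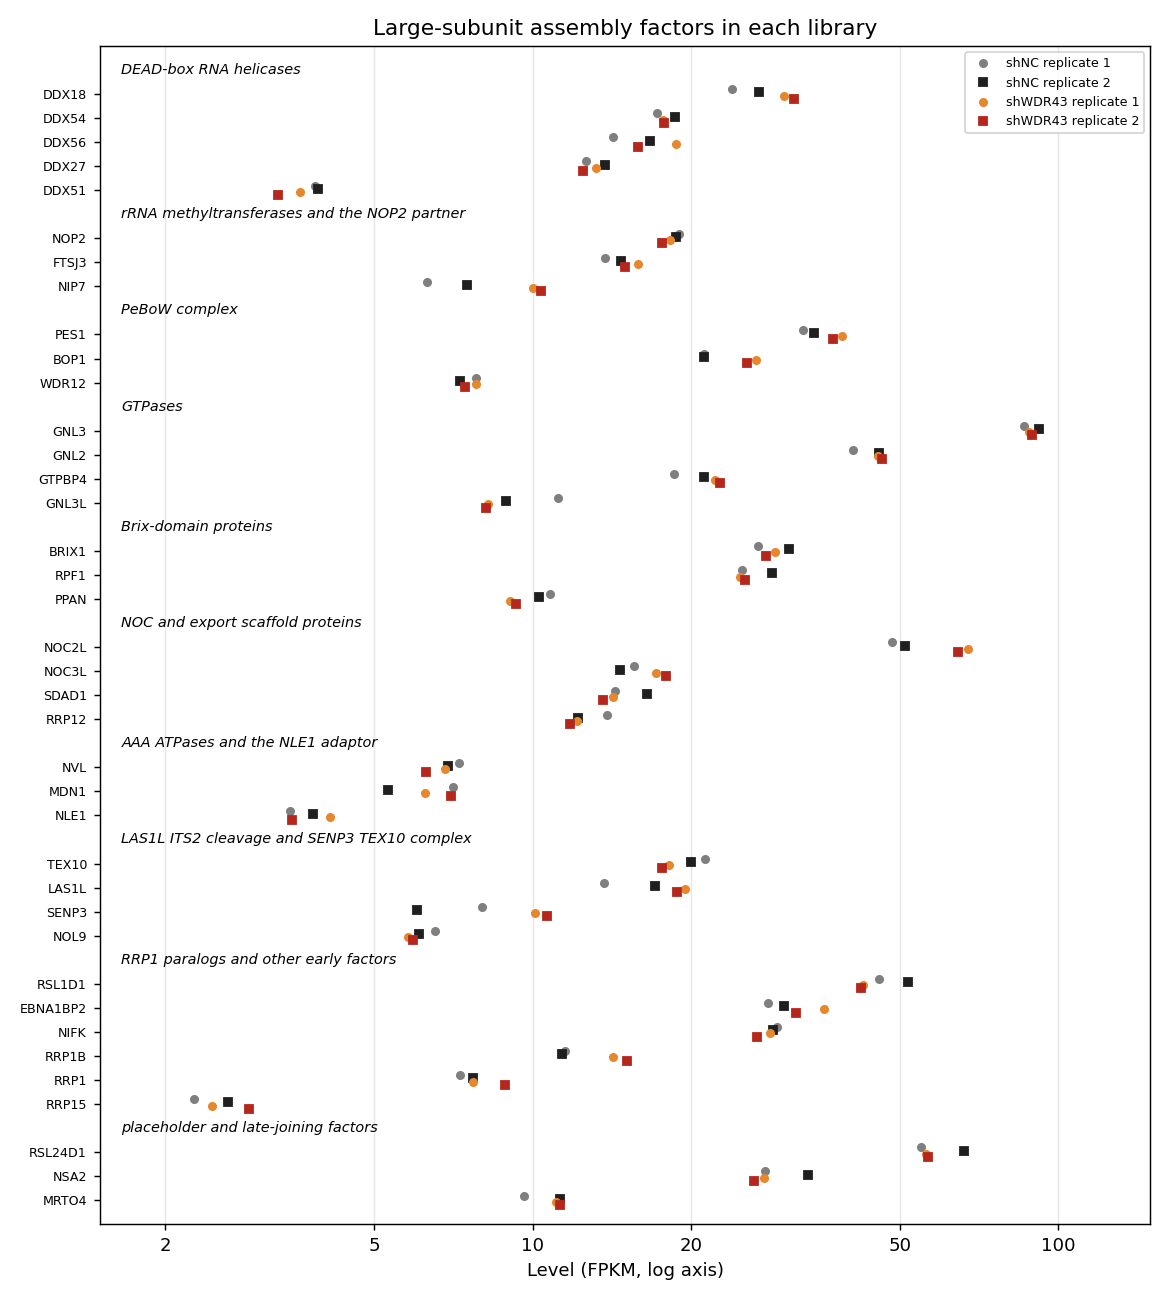
Level of each of the 38 assembly factors (FPKM, log axis) in the 4 libraries, grouped by role, with 1 point per library. NIP7, NOC2L, BOP1 and RRP1B show the 2 shWDR43 points to the right of the 2 shNC points, while GNL3, the highest at a mean of 88.8 FPKM, has the shWDR43 points between the shNC points.

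NIP7 and NOC2L passed the test as higher in cells with the WDR43 hairpin, and no assembly factor passed as lower. All 38 passed the filter on low values. Differences were tested with limma on log2(FPKM + 1), with p-values adjusted over 13303 genes and a threshold of 0.05. With 4 libraries 2 of 38 members were higher, where 4.79% of all tested genes were, and 0 were lower, where 1.47% were. At an unadjusted p under 0.05 the counts were 7 higher and 0 lower, beside 17.8% and 8.63% of all tested genes. In either direction 5.26% of the members passed, near the 6.26% of all genes. The median log2 difference was 0.031 over the members and 0.046 over all genes, with 20 members above 0 and 18 below. Over all tested genes 7720 were above 0 and 5583 below. Under median-ratio and upper-quartile scaling the members' median turned to -0.019 and -0.029.

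Both calls were lost without either shWDR43 library, under either other scaling and with no filter, while the differences stayed of similar size. Against shNC replicates 1 and 2 alone, NIP7 had log2 differences of 0.62 and 0.39, and NOC2L had 0.44 and 0.36. Those fits share both shWDR43 libraries and take the spread within groups from them alone, so they are not separate support. Without shWDR43 replicates 1 and 2 in turn, NIP7 had log2 differences of 0.53 and 0.48, and NOC2L had 0.37 and 0.43. Under median-ratio and upper-quartile scaling NIP7 had 0.45 and 0.44, and NOC2L had 0.34 and 0.33. In limma 0 members passed without shWDR43 replicate 1, where 2.94% of all genes did, and 0 without shWDR43 replicate 2, where 3.47% did. At an unadjusted p under 0.05, 4 members were higher and 0 lower in each of these fits, beside 9.44% and 5.02% of all genes without replicate 1 and 10.4% and 5.1% without replicate 2. Likewise 0 passed under median-ratio scaling (3.88% of all genes, with 295 higher and 221 lower in place of 637 and 196) and under upper-quartile scaling (4.62%, with 327 and 287). There 5 members were higher and 4 lower at an unadjusted p under 0.05, beside 12.7% and 12.5% of all genes under median-ratio and 12.1% and 13.4% under upper-quartile scaling. With no filter on low values 0 members passed, beside 0.0631% of all genes, and 7 were higher and 0 lower at an unadjusted p under 0.05, beside 9.55% and 6.6%. With a filter at 5 FPKM 4 of the 35 members above it were higher, beside 9.34% of all genes. With the replicate number as a block 1 member was higher, beside 3.1%, and with the numbers crossed 6 were, beside 10.3%.

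NIP7 encodes a small nucleolar protein that binds pre-60S particles with NOP2. Its level was 6.30 and 7.52 FPKM in shNC and 10.0 and 10.4 FPKM in shWDR43. Both knockdown libraries were above both controls, and they differed little from each other. The ratio of the group means was 1.48, and the log2 difference was 0.50 ± 0.11 (SE, adjusted p = 0.0391), with a 95% interval of 0.26 to 0.75. NIP7 (ENSG00000132603) lies on chromosome 16 at 69337996 to 69343111, plus strand. COG8, on the opposite strand, overlaps it over 1672 bases and was at 8.86 FPKM in shNC and 8.32 FPKM in shWDR43 (means of 2 libraries). A second opposite gene, AC026464.3, covers all of NIP7 and was at 0.509 FPKM or less. The COG8 overlap ends at 69339667, before the RefSeq start used for the promoter below, so it falls only in the longer GENCODE span. Neither the authors' annotation nor whether they counted by strand is stated, so the level of NIP7 is uncertain. Its 2 measured pseudogenes summed to at most 0.0831 FPKM in a library.

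NOC2L encodes a partner of NOC1 and NOC3 homologs in early pre-60S particles, and is also known as NIR, an inhibitor of histone acetyltransferases. Its shNC values were 48.4 and 51.2 FPKM, and its shWDR43 values 67.5 and 64.5 FPKM. The groups were well separated, with a gap between them several times the spread within either. The ratio of means was 1.33, and the log2 difference was 0.40 ± 0.081 (SE, adjusted p = 0.0351), with a 95% interval of 0.21 to 0.59. NOC2L (ENSG00000188976) lies on chromosome 1 at 944204 to 959309, minus strand, and overlaps SAMD11 on the opposite strand by 378 bases. SAMD11 was at 0.952 and 0.764 FPKM (group means). With the replicate number as a block, NIP7 had an adjusted p of 0.0435 and NOC2L 0.0701.

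The promoters of the pair that passed are shown because they are the regulatory sequence next to the called genes. Each run is the 250 bases before the RefSeq start (GRCh38.p14), 5′ to 3′ on the gene's strand. Capitals mark CCGGAAG or its reverse complement CTTCCGG, the core letters bound by ETS factors. The NIP7 run is chr16:69339522-69339771, plus strand, and the NOC2L run is chr1:959257-959506, minus strand. Each holds 1 match, and neither holds CACGTG.
NIP7: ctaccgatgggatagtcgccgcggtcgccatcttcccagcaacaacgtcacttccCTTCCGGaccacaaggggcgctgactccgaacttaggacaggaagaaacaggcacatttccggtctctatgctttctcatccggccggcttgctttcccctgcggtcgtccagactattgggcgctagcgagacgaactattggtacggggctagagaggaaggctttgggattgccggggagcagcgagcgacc
NOC2L: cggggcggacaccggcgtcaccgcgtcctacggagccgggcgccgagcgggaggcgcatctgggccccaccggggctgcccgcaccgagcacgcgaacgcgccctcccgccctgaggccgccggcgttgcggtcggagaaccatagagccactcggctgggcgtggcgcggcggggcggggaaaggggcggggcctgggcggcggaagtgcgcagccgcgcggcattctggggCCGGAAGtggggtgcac

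The 36 members that did not pass had standard errors of similar size to those that did. Over the 38 members the SE of the log2 difference ran from 0.079 to 0.14. For 35 of the 36, the 95% interval stayed within a 1.5-fold change of FPKM + 1 in either direction. These intervals are not adjusted for the number of genes, and the change in FPKM itself is somewhat larger. The exception was SENP3, whose interval reached 0.82 on the log2 scale. The lowest bound was -0.53, for GNL3L. Groups did not overlap in 25 members, where they did not in 57.3% of all tested genes: shWDR43 lay above shNC in 13 (34.2%) and below in 12 (31.6%), against 35.8% and 21.5% of all tested genes.

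**Figure D2:**
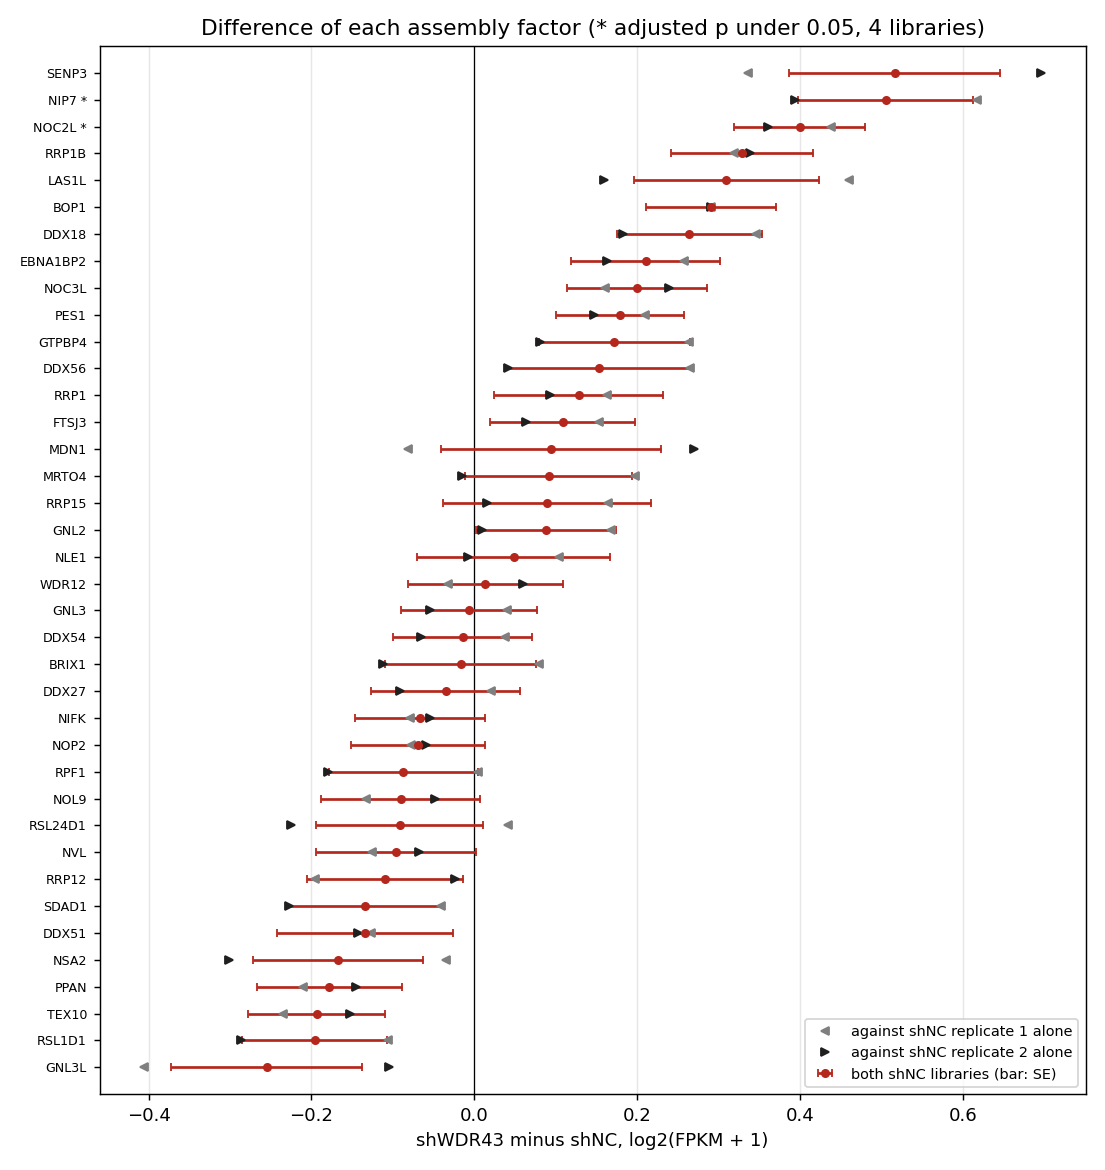
Difference between shWDR43 and shNC for each of the 38 members on the log2(FPKM + 1) scale, with both shNC libraries (red, bar ± SE) and against each shNC library alone (grey and black triangles). SENP3 at 0.52 and NIP7 at 0.50 lie at the top and GNL3L at -0.26 at the bottom; the triangles of SENP3, LAS1L, MDN1, RSL24D1, NSA2 and GNL3L stand clearly outside the error bar of their own gene.

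The rRNA methyltransferase genes beside NIP7 did not pass. NOP2, which methylates a cytosine of 28S rRNA, was at 19.0 and 18.8 FPKM in shNC and 18.3 and 17.7 FPKM in shWDR43. Its 4 values spanned a narrow range, with shWDR43 slightly below, and the log2 difference was -0.069 (adjusted p = 0.635). FTSJ3, a methyltransferase that acts on the ribose of 28S rRNA, was at 13.8 and 14.7 FPKM against 15.9 and 15.0 FPKM (log2 difference 0.11, adjusted p = 0.475). FTSJ3 overlaps PSMC5, a more abundant gene at 55.1 FPKM, on the opposite strand by 2861 bases. NOP2 over NIP7, a ratio of FPKM within a library, was 3.02 and 2.50 in shNC and 1.83 and 1.70 in shWDR43.

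Among the PES1-BOP1-WDR12 complex genes, the 3 subunits were at unlike levels, and none passed. BOP1, a WD-repeat subunit, was at 21.2 and 21.2 FPKM in shNC and 26.6 and 25.6 FPKM in shWDR43, a ratio of means of 1.23. The control values were almost the same, and both knockdown values lay above them. The log2 difference of 0.29 ± 0.080 did not pass (adjusted p = 0.0709). PES1, the subunit with a BRCT domain, was at 32.8 and 34.3 FPKM against 38.8 and 37.3 FPKM (log2 difference 0.18, adjusted p = 0.199). WDR12, which MDN1 is known to act on, was at 7.82 and 7.28 FPKM against 7.81 and 7.45 FPKM, with overlapping groups (log2 difference 0.014, adjusted p = 0.945, and -0.040 and -0.049 under the other scalings). BOP1 over WDR12 was 2.71 and 2.91 in shNC and 3.41 and 3.44 in shWDR43, a ratio that was not tested. The proteins form a complex in equal numbers, and these are levels of mRNA per length, not of protein.

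None of the ITS2 cleavage enzymes and SENP3 complex genes passed, and their differences had both signs. SENP3 encodes a SUMO protease that acts on pre-60S factors. It was at 8.02 and 6.03 FPKM in shNC and 10.1 and 10.7 FPKM in shWDR43. Both knockdown libraries were above the controls, but the controls stood far apart, and the difference of 0.52 ± 0.13 just missed the threshold (adjusted p = 0.0586). A read-through gene on the same strand, SENP3-EIF4A1, covers 8683 bases of SENP3 and was at 3.20, 9.02, 7.08 and 2.94 FPKM in shNC replicates 1 and 2 and shWDR43 replicates 1 and 2. It was highest in the library where SENP3 was lowest and lowest in the library where SENP3 was highest, so the split of reads between the pair is uncertain. LAS1L, the endonuclease that cuts ITS2, was at 13.7 and 17.1 FPKM against 19.5 and 18.8 FPKM (log2 difference 0.31, adjusted p = 0.136). Its partner kinase NOL9 was at 6.52 and 6.09 FPKM against 5.80 and 5.92 FPKM (adjusted p = 0.599). TEX10, a scaffold of the SENP3 complex, was at 21.3 and 20.1 FPKM against 18.2 and 17.7 FPKM, below the controls in both libraries (log2 difference -0.19, adjusted p = 0.193). Within a library, TEX10 over SENP3 was 2.65 and 3.32 in shNC and 1.801 and 1.66 in shWDR43.

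The helicase genes did not pass. DDX18, an RNA helicase of the nucleolus, was at 24.0 and 27.002 FPKM in shNC and 30.1 and 31.5 FPKM in shWDR43 (log2 difference 0.26 ± 0.089, adjusted p = 0.114). Both shWDR43 values were higher, by about as much over the nearest control as that control was over the other. DDX51 was at 3.85 and 3.90 FPKM against 3.61 and 3.28 FPKM (log2 difference -0.13, adjusted p = 0.465). DDX27, DDX54 and DDX56 had overlapping groups, with log2 differences of -0.035, -0.014 and 0.15.

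The GTPase genes hold both the most abundant member and the one with the lowest difference. GNL3, or nucleostemin, was at 86.1 and 92.0 FPKM in shNC and 88.0 and 89.1 FPKM in shWDR43. The knockdown values lay between the controls, with a log2 difference of -0.0069 ± 0.084 (adjusted p = 0.970). The 95% interval was 0.870 to 1.14 times the control in FPKM + 1. Its paralog GNL3L was at 11.2 and 8.90 FPKM against 8.24 and 8.16 FPKM (log2 difference -0.26 ± 0.12, adjusted p = 0.215). The highest value was that of shNC replicate 1, which stood above the other 3 libraries. GNL2 was at 40.8 and 45.6 FPKM against 45.5 and 46.3 FPKM, and GTPBP4 at 18.6 and 21.2 FPKM against 22.2 and 22.8 FPKM (adjusted p = 0.556 and 0.283). GNL3 hosts snoRNA genes in its introns and overlaps PBRM1 on the opposite strand by 4762 bases.

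Of the Brix-domain genes, whose products bind rRNA early, none passed. PPAN was at 10.8 and 10.3 FPKM in shNC and 9.06 and 9.31 FPKM in shWDR43, below the controls (log2 difference -0.18, adjusted p = 0.249). PPAN shares its whole length with the read-through gene PPAN-P2RY11, at 1.01 and 1.34 FPKM against 3.11 and 1.05 FPKM, so its level is uncertain. BRIX1 was at 26.8 and 30.8 FPKM against 28.97 and 27.8 FPKM, and RPF1 at 25.0 and 28.6 FPKM against 24.9 and 25.4 FPKM. Both had overlapping groups.

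NOC3L, SDAD1 and RRP12, which act in intranuclear transport or export of precursors, did not follow NOC2L past the threshold. NOC3L was at 15.6 and 14.7 FPKM in shNC and 17.2 and 17.9 FPKM in shWDR43 (log2 difference 0.20, adjusted p = 0.190). SDAD1 was at 14.4 and 16.5 FPKM against 14.3 and 13.6 FPKM. RRP12 was at 13.9 and 12.2 FPKM against 12.1 and 11.8 FPKM. For SDAD1 and RRP12 the knockdown values were only just under the nearest control, and the log2 differences were -0.13 and -0.11. The 2 measured pseudogenes of SDAD1 summed to 1.32 to 2.76 FPKM, so a part of its reads may be shared.

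The ATPase genes and the NLE1 adaptor did not pass. MDN1, the largest assembly factor, an ATPase with a ring of AAA modules, was at 7.06 and 5.32 FPKM in shNC and 6.26 and 6.9995 FPKM in shWDR43. All of the shWDR43 values lay inside the control range (log2 difference 0.094, adjusted p = 0.699). NVL was at 7.23 and 6.91 FPKM against 6.82 and 6.28 FPKM. NLE1, the WD-repeat adaptor that MDN1 strips from the particle, was at 3.46 and 3.82 FPKM against 4.12 and 3.49 FPKM.

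RRP1B and RRP1, paralogs of 1 yeast factor, lie on the same strand of chromosome 21, RRP1B at 43659548 to 43696079 and RRP1 at 43789513 to 43805293. RRP1B was at 11.6 and 11.4 FPKM in shNC and 14.2 and 15.1 FPKM in shWDR43. The controls were close together and both knockdown values lay above them, a ratio of means of 1.28, with a log2 difference of 0.33 ± 0.087 (adjusted p = 0.0660). RRP1 was at 7.28 and 7.69 FPKM against 7.69 and 8.88 FPKM (log2 difference 0.13, adjusted p = 0.471). EBNA1BP2, a nucleolar factor needed for processing of the large-subunit RNA, was at 28.1 and 30.1 FPKM against 35.9 and 31.8 FPKM (log2 difference 0.21, adjusted p = 0.195). RSL1D1, a nucleolar protein with a ribosomal L1 domain, was at 45.7 and 51.9 FPKM against 42.6 and 42.2 FPKM, below both controls (log2 difference -0.20, adjusted p = 0.209). NIFK, which binds the Ki-67 protein, had values of 29.1 and 28.6 FPKM against 28.3 and 26.8 FPKM. RRP15, the lowest member, was at 2.27 and 2.63 FPKM against 2.45 and 2.89 FPKM.

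The placeholder and late-joining genes did not pass. MRTO4, which holds the place of the stalk protein RPLP0, was at 9.63 and 11.3 FPKM in shNC and 11.1 and 11.3 FPKM in shWDR43. RSL24D1, which holds the place of RPL24, was at 54.8 and 66.1 FPKM against 56.1 and 56.7 FPKM. NSA2 was at 27.7 and 33.5 FPKM against 27.6 and 26.4 FPKM (log2 difference -0.17, adjusted p = 0.345). In each of these 3 genes shNC replicate 2 had a higher value than shNC replicate 1, and for RSL24D1 and NSA2 it stood apart from the other 3 libraries.

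**Figure D3:**
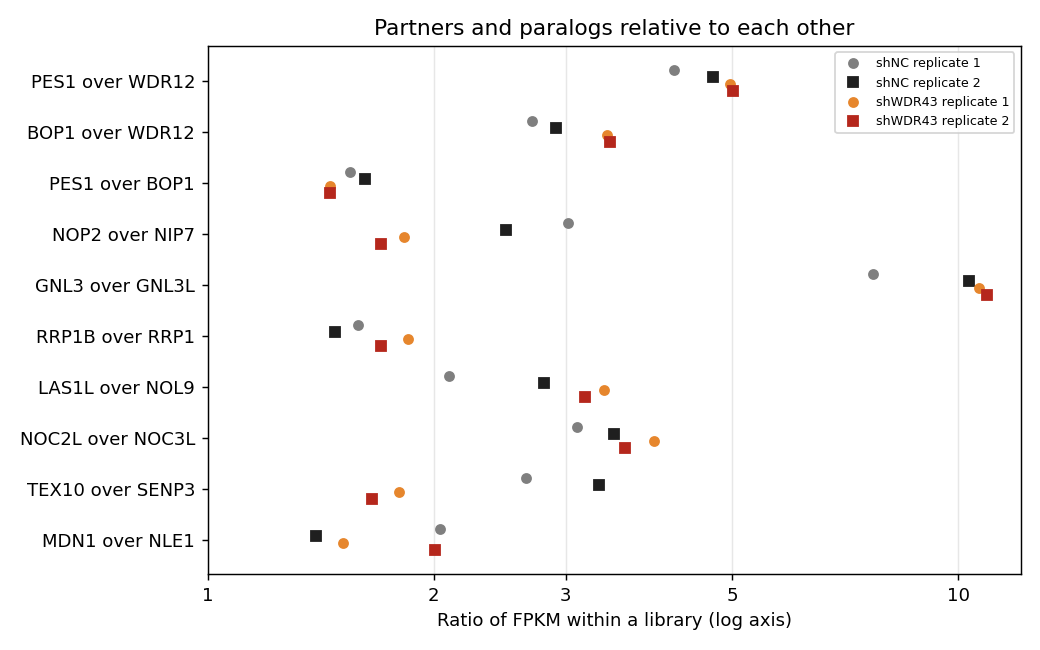
Ratio of FPKM between partners or paralogs within each library (log axis), for 10 pairs picked after the values were seen, with 1 point per library. NOP2 over NIP7 is 3.02 and 2.50 in shNC and 1.83 and 1.70 in shWDR43, while MDN1 over NLE1 has overlapping groups.

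The control libraries differed from each other by about as much as the groups did, although means of 2 libraries vary less than single libraries. Over the members the median absolute difference between the shNC libraries was 0.11 on the log2(FPKM + 1) scale, against 0.057 between the shWDR43 libraries. Over all tested genes the figures were 0.14 and 0.086. The median absolute difference between the groups was 0.13 over the members and 0.16 over all tested genes. The gap between the shNC libraries exceeded the group difference in 18 of 38 members (47.4%), against 47.3% of all tested genes. The gap had a side: 25 of 38 members (65.8%) were lower in shNC replicate 1 than in shNC replicate 2, against 48.2% of all tested genes. Likewise lower in shNC replicate 1 were 34 of the 46 other large-subunit assembly genes described below. The 47 large-subunit ribosomal protein genes went the same way in 46 cases. Their summed level was 21364 FPKM in shNC replicate 1, 26143 in shNC replicate 2, and 23649 and 22616 in shWDR43. The part of this gap in the members' differences was not tested.

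Each control library was also taken alone against both shWDR43 libraries, as planned. These fits share the shWDR43 libraries, have 1 residual degree of freedom per gene, and assume that a lone control varies like the shWDR43 libraries. The shNC libraries differed more than the shWDR43 libraries did, with median absolute differences of 0.14 and 0.086 over all tested genes. That assumption is therefore doubtful, and p-values from these fits may be too small. Against shNC replicate 1 alone, 7 members passed as higher and 1 as lower, where 13.5% and 6.13% of all tested genes did. Against shNC replicate 2 alone, 5 passed as higher and 2 as lower, where 9.17% and 4.06% of all genes did. In either direction 21.1% and 18.4% of the members passed, beside 19.6% and 13.2% of all genes.

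NIP7, NOC2L, BOP1, RRP1B and SENP3 passed against each control library alone, all higher in shWDR43. These 5 of 38 stand beside 6% of all tested genes that were higher both times, in fits that share both shWDR43 libraries. For BOP1 the choice of control made almost no difference, with a log2 difference of 0.29 against either (adjusted p = 0.0363 against shNC replicate 1 and 0.0465 against shNC replicate 2). RRP1B had 0.32 and 0.34 in the same order (adjusted p = 0.0428 and 0.0455). NOC2L had 0.44 and 0.36 (adjusted p = 0.00718 and 0.0187), and NIP7 0.62 and 0.39 (adjusted p = 0.00718 and 0.0356). SENP3 depended most on the control, at 0.34 and 0.70 (adjusted p = 0.0433 and 0.00911).

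Another 5 members passed against 1 control only, as did 17.3% of all tested genes. Against shNC replicate 1 these were DDX18 at 0.35 (adjusted p = 0.0192), LAS1L at 0.46 (adjusted p = 0.0108) and GNL3L at -0.41 (adjusted p = 0.0224). Against shNC replicate 2 the values of the same 3 genes were 0.18, 0.16 and -0.10. RSL1D1 at -0.29 (adjusted p = 0.0341) and NSA2 at -0.30 (adjusted p = 0.0405) passed against shNC replicate 2, and had -0.11 and -0.034 against shNC replicate 1. Whether the effect differed between controls was not tested. In 10 of 38 members (26.3%) the sign itself depended on the control, against 27.9% of all tested genes. MDN1 had the widest such swing, from -0.081 against shNC replicate 1 to 0.27 against shNC replicate 2. MDN1, SENP3 and LAS1L had the largest gaps between controls among the 35 members with a mean of at least 5 FPKM, at 0.35, 0.36 and -0.30 (shNC replicate 1 minus replicate 2).

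Other genes of large-subunit assembly, 46 with a value of 49 listed, gave 3 higher and 0 lower with 4 libraries, beside 4.79% and 1.47% of all tested genes. At an unadjusted p under 0.05, 10 were higher and 2 lower, beside 17.8% and 8.63%. EIF6, which keeps the 60S particle from joining the small subunit too early, was at 22.1 and 24.8 FPKM in shNC and 36.3 and 34.3 FPKM in shWDR43 (log2 difference 0.57 ± 0.090, adjusted p = 0.0220). NPM3, a nucleoplasmin-family protein, was at 31.7 and 37.2 FPKM against 48.6 and 48.0 FPKM (log2 difference 0.48 ± 0.095, adjusted p = 0.0344). NOL12, a nuclease of rRNA processing, was at 3.42 and 3.58 FPKM against 5.14 and 5.46 FPKM (log2 difference 0.49 ± 0.10, adjusted p = 0.0393). In all 3 the groups were well apart. The median log2 difference of the 46 genes was 0.12 (0.063 and 0.053 under median-ratio and upper-quartile scaling), and 33 were above 0. Over all 13303 tested genes the median was 0.046 (-0.0042 and -0.013 under these scalings), and 7720 were above 0. Only 1 of the 46 passed under either scaling. EIF6 was the only one of them to pass without shWDR43 replicate 1 (adjusted p = 0.0403) and without shWDR43 replicate 2 (adjusted p = 0.0103). Against shNC replicate 1 alone 12 of the 46 were higher and 1 lower, beside 13.5% and 6.13% of all genes, and against shNC replicate 2 alone 4 were higher and 2 lower, beside 9.17% and 4.06%.

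None of the 47 large-subunit ribosomal protein genes passed in limma, with 1 higher and 4 lower at an unadjusted p under 0.05 (17.8% and 8.63% of all genes). RPL37 was at 42.3 and 45.2 FPKM in shNC and 35.8 and 32.0 FPKM in shWDR43 (log2 difference -0.36, adjusted p = 0.0579). RPL14 was at 156 and 204 FPKM against 129 and 113 FPKM (log2 difference -0.56, adjusted p = 0.0587). Both were lower in each shWDR43 library than in either control. The count followed the control: 13 were higher and 3 lower against shNC replicate 1 alone, and 0 higher and 10 lower against shNC replicate 2 alone, beside the shares of all genes just given.

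**Figure D4:**
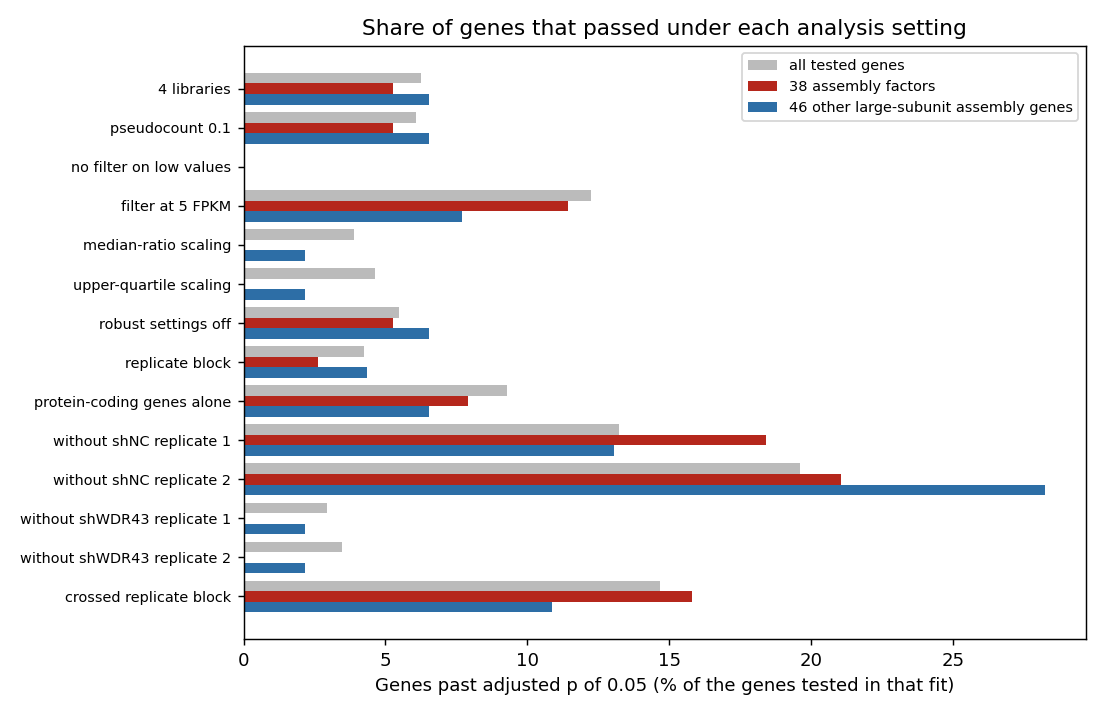
Percent of genes that passed an adjusted p of 0.05 in each fit, for all tested genes, the 38 members and the 46 other large-subunit assembly genes. With 4 libraries the shares are 6.26%, 5.26% and 6.52%, and the bars rise for all 3 sets when a control library is left out.

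A part of the member promoters holds a sequence feature that the choice of genes did not use. CACGTG, the E-box that MYC with MAX is known to bind, was searched from 250 bases before to 50 bases after each RefSeq start (GRCh38.p14). The letters read the same on both strands. A promoter was found for 33 of the 38 members, and 12 of them held CACGTG, or 36.4%. The share was 8.77% of all 27305 genes in the table, 12.7% of the 9852 tested genes that had a promoter there, 23.3% of 43 other large-subunit assembly genes and 5.26% of 38 large-subunit ribosomal protein genes. In 9 of the 12 genes a match lay within the first 50 bases after the start. A match describes the letters and not binding.

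The matches are printed with up to 10 bases on either side, to show where the flanks agree and differ, and capitals mark CACGTG. MDN1 and EBNA1BP2 have 2 matches each, and 1 of each is shown; that of EBNA1BP2 lies at the second of its 2 RefSeq starts. Positions count from the RefSeq start, and the runs of EBNA1BP2, DDX54, MDN1, SDAD1 and TEX10 lie before it, at 237, 61, 155, 228 and 30 bases. The others lie after it, at 4 bases for GNL2, 7 for GNL3, 13 for NLE1, 14 for PES1, 15 for MRTO4, 20 for NOC3L and 36 for NOP2.
GNL2: acgtcgtgcaCACGTGgtccggcgtg
GNL3: cttcagttcaCACGTGgcgccagcgg
NLE1: ctttctcctcCACGTGgggacgcagg
PES1: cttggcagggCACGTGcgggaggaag
MRTO4: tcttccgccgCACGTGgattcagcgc
NOC3L: gggacttcggCACGTGtgtcattccc
NOP2: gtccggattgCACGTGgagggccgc
TEX10: gggctgcgatCACGTGagcacagcag
DDX54: cagcggaggtCACGTGgtcaccgcac
MDN1: tctgtcccacCACGTGctgtgttcgc
SDAD1: catgctaacaCACGTGaaaaaattta
EBNA1BP2: tattgttggcCACGTGggatcgaaga

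The members with CACGTG covered a narrower range of differences than those without it, a description with no test. A smaller set tends to have a narrower range, so no conclusion is drawn from it. DDX18, BOP1, RRP12, RRP1B and RSL1D1 had no promoter entry and are in neither set. The 12 with it had log2 differences from -0.19 to 0.21 with a median of 0.068, and the 21 without it from -0.26 to 0.52 with a median of -0.017. Neither NIP7 nor NOC2L was among the 12. The ETS letters CCGGAAG, on either strand and searched after the differences were known, were in 17 of 33 member promoters (51.5%), in 23.1% of the tested genes and in 48.8% of the other assembly genes. A pair of longer palindromes were searched likewise, a core of the NRF1 motif and the motif linked to ZBTB33. The NRF1 core was in 0 of the 33 member promoters, against 2.77% of tested genes and 9.30% of the 43 other assembly genes. The ZBTB33 motif was in 1, that of NOL9, against 1.08% and 2.33%. With 33 promoters, counts of motifs this rare are too small to compare.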

How the data were processed

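RNA-seq of 4 HCT116 libraries, 2 per group, was analysed. The deposited values were read as FPKM from the values alone; TPM over part of the genes is possible. The submitters' processing notes name HISAT2, RSEM, edgeR, Trimmomatic, FastQC and CASAVA 1.8 with the build GRCh38, and give no order; the authors' annotation and strand setting are not stated there. Of 29286 genes, 29170 had a symbol, and 1 blank entry was left out. Coordinates are from GENCODE 29 and promoters from RefSeq (GRCh38.p14), with no conversion. Low values showed no whole-read steps (at most 1.05% of genes under 0.5 FPKM in a 1% window of ratios), so no reads were recovered.

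The main test, run in R 4.3.3, was limma 3.58.1 fitted to log2(FPKM + 1) of the 13303 genes that reached 1 FPKM in 2 or more libraries, with the group as the only term, a mean-variance trend and robust moderation, two-sided, with Benjamini-Hochberg adjustment and a threshold of 0.05. Fold changes on this scale understate those of low genes. The procedure was tested on simulated data. With 2 against 2, an exact permutation test of 1 gene cannot pass this threshold. The ETS motif and the gene pairs were chosen after the values were seen. Members and lists were chosen with earlier results of these data known. Values are given for all members. Of the other assembly genes and the ribosomal protein genes, up to 6 that passed, or the 2 nearest, are named. All epithelial markers and all measured markers of other cell types are named. The values of CD68, ACTA2, COL1A1 and LYZ were added after they were seen. Alternatives were another pseudocount, filter, scaling, moderation, gene set or block, and leaving out each library. Python 3.11.15, pandas 2.3.3 and matplotlib 3.10.9 were used.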

Additional observations from a re-analysis of the deposited data

How the results depend on the processing

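The number of changed genes over all tested genes was 833 (637 higher, 196 lower). It was 17 with no filter on low values, 516 under median-ratio scaling (295 higher, 221 lower), 614 under upper-quartile scaling (327 higher, 287 lower), and 391 to 2610 when 1 library was left out. The members gave 2 higher, but 0 with no filter and under either scaling, 4 with a filter at 5 FPKM (SENP3 and RRP1B added), and 0 to 7 higher and 0 to 2 lower when 1 library was left out. The other large-subunit assembly genes gave 3 higher, but 0 with no filter, 1 under either scaling, and 1 to 12 higher and 0 to 2 lower when 1 library was left out. The large-subunit ribosomal protein genes gave 2 lower with a filter at 5 FPKM, under upper-quartile scaling and among protein-coding genes alone, and 0 to 13 higher and 0 to 10 lower when 1 library was left out. Beside those 2 lower genes, 244 of all 8428 genes tested were lower with the filter at 5 FPKM. The counts were 287 of 13303 under upper-quartile scaling and 231 of 11606 among protein-coding genes alone. With a replicate block 563 genes changed and 1 member was higher. Deviations of same-numbered libraries correlated at -0.147 across genes, so the numbers were not taken as pairs. With the numbers crossed, a fit chosen after seeing the data, 1954 genes changed and 6 members were higher. Of 453 member values under the other settings, 410 kept both their direction and their side of the threshold. Signs turned for WDR12 at -0.040 under median-ratio scaling and -0.049 under upper-quartile scaling, and for NLE1 at -0.0076 under the latter. When 1 library was left out, the log2 difference ran from -0.091 to 0.020 for DDX27, -0.066 to 0.037 for DDX54, -0.032 to 0.060 for WDR12, -0.054 to 0.040 for GNL3, -0.11 to 0.079 for BRIX1, -0.18 to 0.0050 for RPF1, -0.081 to 0.27 for MDN1, -0.047 to 0.14 for NLE1, -0.015 to 0.20 for MRTO4 and -0.23 to 0.042 for RSL24D1. None of these 10 genes passed in any of these fits. Adjusted p ran from 0.00718 to 0.140 for NIP7 and from 0.00718 to 0.267 for NOC2L over the alternatives; the cause was not tested.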
